A study of Astyanax mexicanus with 12 samples.

Results

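Molino and Tinaja are cave-dwelling morphs of *A. mexicanus*, the Mexican tetra, and their small RNAs at 24 hours post fertilization (hpf) were compared directly through 3 Molino and 3 Tinaja libraries, 6 of the 12 libraries of the study. All 683 miRNAs listed in the count table were members of the comparison, and none was chosen by its values. The other 6 libraries came from Pachón cavefish and from river-dwelling surface fish, which give the level from which each cave morph can be said to depart. The embryos of every group were labelled wild type (WT), with the same stage and tissue, so the groups differed by label in the morph alone. The paper cites comparable development until 24 hours for surface fish and Pachón. For Tinaja and Molino it states that care was taken to collect comparable stages, and differences in developmental timing were not tested here. The study describes 50 embryos collected per morph without stating their division among libraries, so that SDs and p-values cover the spread between these libraries, which may be technical. The tissue label was not checked against marker miRNAs here.

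A mature miRNA is a short RNA cut from a hairpin precursor and loaded into the RNA-induced silencing complex, which it guides to messenger RNAs through pairing of its seed, the bases near its 5′ end. Bound messages are repressed or degraded, and one miRNA can act on many of them. Molino cave lies in the Sierra de Guatemala, whereas Tinaja and Pachón are caves of the El Abra range, and cavefish of both ranges have reduced eyes and pigment. A direct comparison of cave morphs asks which miRNAs differ between fish that both live in the dark. The count table names the miRNAs by numbers of the authors' own, and their families and functions were not analysed here. Sequences and genomic positions of the mature miRNAs were not analysed here.

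The miRNA counts of a library added up to 7683993 to 8275406 in Molino and to 7565642 to 14673376 in Tinaja. Levels are given in CPM, the count of a miRNA scaled by the TMM-adjusted size of its library, and the detection floor of 3 counts stood for 0.218 to 0.392 CPM in these 6 libraries. Floors and counting intervals cover counting error only, since reads lacking molecular identifiers may be copies of each other. Pearson's r of log2(CPM + 0.5) over 503 well-counted miRNAs (mean of 10 counts or more) was 0.995 to 0.9957 between Molino libraries, 0.9937 to 0.9966 between Tinaja libraries, and 0.8884 to 0.8923 between Molino and Tinaja libraries, over miRNAs that are not independent replicates. Tinaja replicate 3 stood apart from the other Tinaja libraries, with a TMM factor of 1.136 against 0.9374 and 0.9839 and with 10.9% of its counts on astmex-miR-2 against 16% and 17.3%. The counts of differentially expressed miRNAs are therefore also given without it.

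Between Molino and Tinaja, 292 of the 683 miRNAs (42.8%) were differentially expressed, which means an adjusted p-value under 0.05 in the quasi-likelihood test of edgeR (Benjamini−Hochberg adjustment) and a fold change of at least 2. Of these, 192 (28.1% of all tested) were higher in Molino and 100 (14.6%) were higher in Tinaja. An adjusted p under 0.05 alone was reached by 434 miRNAs (63.5%), 240 higher in Molino and 194 higher in Tinaja, so that 142 miRNAs differed by less than 2-fold. Most of these 142 were higher in Tinaja, so the larger number in Molino belongs to the changes of at least 2-fold. Without Tinaja replicate 3, the numbers were 290 in all, 189 higher in Molino, and 101 higher in Tinaja. After random thinning of every library to the smallest total, the number was 273, of which 173 were higher in Molino and 100 higher in Tinaja. The larger number in Molino was also found at equal total counts, though the composition of the libraries still differed. The direct comparisons that share these libraries gave 270 differentially expressed miRNAs (39.5%) between Molino and Pachón, 165 higher (24.2%) and 105 lower (15.4%) in Molino, and 170 (24.9%) between Tinaja and Pachón, 73 higher (10.7%) and 97 lower (14.2%) in Tinaja. The difference between these numbers was not tested.

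The libraries themselves were well separated. For 447 miRNAs (65.4% of all tested), the 3 Molino levels did not overlap the 3 Tinaja levels, with Molino higher in 254 (37.2%) and Tinaja higher in 193 (28.3%). Among the 292 differentially expressed miRNAs the levels of the morphs were separate for 284 and overlapped for 8. The median log2 fold change of all miRNAs, Molino over Tinaja, was 0.15, and it lay between −0.03 and 0.20 under the alternative settings.

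Many of the differences were large, and part of them were differences between counted and hardly counted. In 47 of the miRNAs higher in Tinaja, no Molino library had more than 3 counts, and 25 of these had no count in Molino at all. In 49 of those higher in Molino, no Tinaja library had more than 3 counts, and 19 of these had no Tinaja count. The remaining 196 miRNAs, 143 higher in Molino and 53 higher in Tinaja, had a median log2 fold change of 1.84 toward Molino and −1.54 toward Tinaja. Among these 196, a fold change of at least 4 was found for 59 miRNAs higher in Molino and 17 higher in Tinaja, of at least 8 for 25 and 7, and of at least 16 for 13 and 0. Over all differentially expressed miRNAs the log2 fold change had a median size of 2.28, or 2.06 when miRNAs with no count in a morph were set to the lower limit given by 3 counts per library. By direction, the medians over all were 2.23 toward Molino and −2.64 toward Tinaja, or 2.09 and −1.95 at that limit. The 196 leave out 47 of the 100 miRNAs higher in Tinaja and 49 of the 192 higher in Molino. Which direction had the larger differences thus depends on how hardly counted miRNAs are treated.

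**Figure D1:**
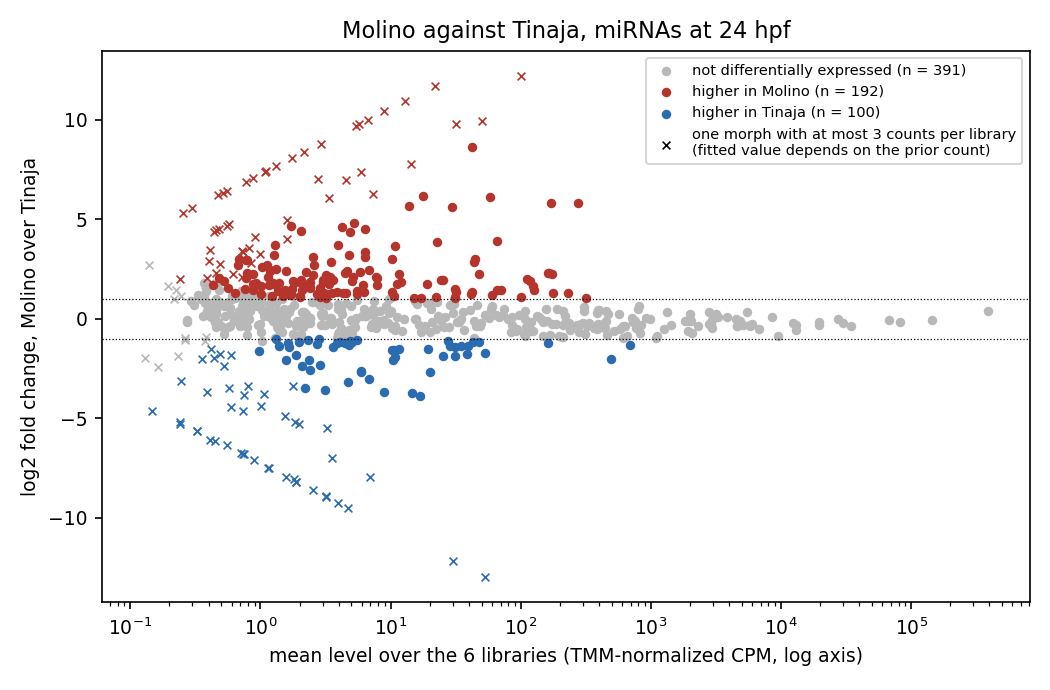
Each mark is a miRNA, with its mean level over the 6 Molino and Tinaja libraries (TMM-normalized CPM, log axis) and its log2 fold change, Molino over Tinaja; dotted lines mark 2-fold, crosses mark miRNAs with at most 3 counts in every library of one morph, and 12 miRNAs at that level in both morphs are left out. The 192 miRNAs higher in Molino and the 100 higher in Tinaja lie mostly at low and middle levels.

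Differentially expressed miRNAs were mostly of low or middle abundance. They took up 0.706% ± 0.0507 (SD, n = 3) of the counts in Molino and 0.474% ± 0.0594 (SD, n = 3) in Tinaja. The 192 miRNAs higher in Molino held 0.610% ± 0.0414 of the Molino counts and 0.143% ± 0.0238 of the Tinaja counts, and the 100 higher in Tinaja held 0.0968% ± 0.00965 and 0.331% ± 0.0357, respectively. Since these sums are over miRNAs chosen for the difference, they describe its extent and test nothing. By mean count over the 12 libraries, 80 of the 180 miRNAs under 10 counts (44.4%), 146 of 256 with 10 to under 100 (57%), 55 of 115 with 100 to under 1000 (47.8%), and 11 of 132 with at least 1000 (8.33%) were differentially expressed. With an adjusted p under 0.05 alone, 96 of the 132 most abundant miRNAs (72.7%) differed, and their median size of the log2 fold change was 0.338 against 1.25 in the class of 10 to under 100 counts. In each class, more of the differentially expressed miRNAs, which pass both thresholds, were higher in Molino than in Tinaja.

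**Figure D2:**
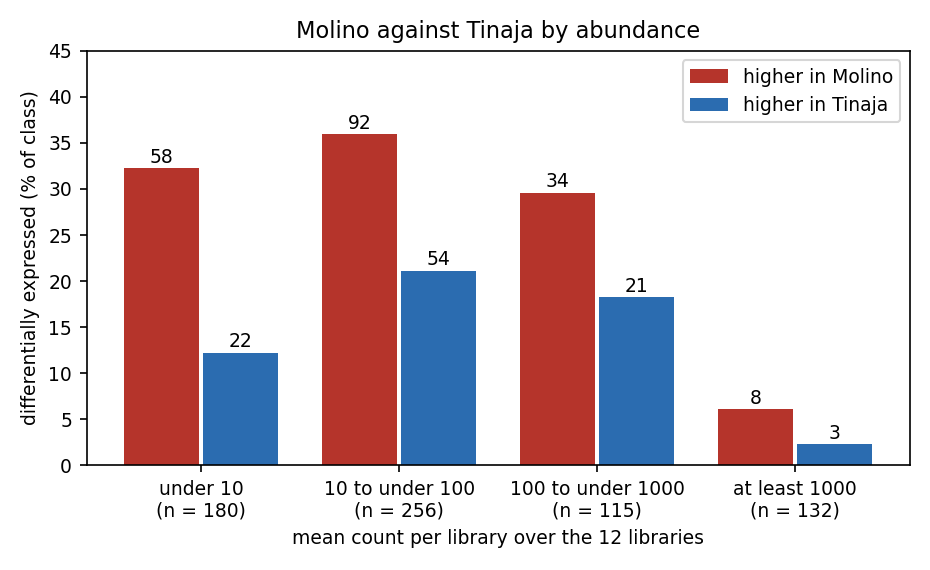
Bars give the percentage of miRNAs in each class of mean count per library that were differentially expressed between Molino and Tinaja, by direction, with the number of miRNAs above each bar. The share falls in the class of at least 1000 counts, where 8 of 132 were higher in Molino and 3 higher in Tinaja.

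The 3 most abundant miRNAs differed by less than 2-fold. For astmex-miR-1, the first of them, the Molino libraries held 439684, 415355, and 465221 CPM and the Tinaja libraries 331630.0, 333517, and 336324 CPM. All Molino levels lay above all Tinaja levels, short of 2-fold (log2 fold change 0.40, standard error 0.07, edgeR adjusted p = 0.000119). Its share of all miRNA counts was 39.7% to 45.4% in the Molino libraries and 31.3% to 38.2% in the Tinaja libraries, a large part of each library. Surface fish stood at 372195 ± 41253 CPM (SD, n = 3), between both morphs, and neither morph was differentially expressed against them. For astmex-miR-2, the levels were 112216, 161953, and 149832 CPM in Molino and 162814, 184457, and 96051 CPM in Tinaja, which overlap (log2 fold change −0.06, standard error 0.17, edgeR adjusted p = 0.774). The levels of astmex-miR-3 also overlapped, at 77215 ± 14602 CPM in Molino and 86398 ± 25271 CPM in Tinaja (log2 fold change −0.16, standard error 0.17, edgeR adjusted p = 0.417), and the lowest Tinaja level of both was that of replicate 3.

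The levels of surface fish and Pachón show where the other morphs stood. Their libraries entered the same fit and so shared in its scaling and its estimate of the spread, and a fit of the 6 Molino and Tinaja libraries alone gave 179 miRNAs higher in Molino in place of 192. On the scale of log2(CPM + 0.5), the mean surface level lay between the Molino and the Tinaja level for 194 of the 292 miRNAs, above both for 34, and below both for 64. It was nearer to the Tinaja level for 160 of the 292 and nearer to the Molino level for 132, compared with 380 and 300 of all miRNAs tested. The Pachón level was nearer to the Tinaja level for 192 and nearer to the Molino level for 100, compared with 410 and 270 of all miRNAs. These counts are descriptions and were not tested.

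Each cave morph was then compared with surface fish in the same fit, under the same thresholds, to state which of them departs from the surface level. These comparisons share the surface libraries, so their values are given side by side. Of the 192 miRNAs higher in Molino, Molino was above surface fish for 105, below for 6, and not differentially expressed for 81, while Tinaja was above for 6, below for 70, and not differentially expressed for 116. Over all 683 miRNAs, 238 (34.8%) were differentially expressed between Molino and surface fish, 161 above (23.6%) and 77 below (11.3%), and 196 (28.7%) between Tinaja and surface fish, 96 above (14.1%) and 100 below (14.6%). Of the 100 miRNAs higher in Tinaja, Molino was above surface fish for 4, below for 44, and not differentially expressed for 52, and Tinaja was above for 49, below for 2, and not differentially expressed for 49. Both directions of the difference thus contained miRNAs in which Molino departed and miRNAs in which Tinaja departed. In what follows a morph departs from the surface level where it was differentially expressed against surface fish, and a morph that did not reach the thresholds is not thereby shown to be at that level.

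The 28 leading miRNAs, 16 higher in Molino and 12 higher in Tinaja, were those with the smallest adjusted p, the highest levels, or no count in the other morph. Choosing by the direct difference favours miRNAs whose morphs depart from surface fish in opposite directions. The numbers of each pattern below thus describe this list only. In 6 of the 16 higher in Molino, Molino was above and Tinaja below the surface level. For astmex-miR-239, the Molino libraries held 213, 209, and 179 CPM, and the Tinaja libraries had 0, 0, and 1 counts. Surface fish stood at 2.75 ± 0.597 CPM and Pachón at 0.32 ± 0.13 CPM (SD, n = 3). The summed counts per library size were 6912 times as high in Molino as in Tinaja (95% exact counting interval 1240 to 273100, edgeR adjusted p = 1.04e-15). This miRNA was thus nearly uncounted in Tinaja, scarce in surface fish, and well counted in every Molino library.

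Molino also lay above and Tinaja below surface fish, at other levels, for astmex-miR-205, one of the most abundant miRNAs higher in Molino. Its Molino levels were 558, 599, and 476 CPM and its Tinaja levels 10.7, 8.94, and 9.43 CPM (log2 fold change 5.81, standard error 0.12, edgeR adjusted p = 1.04e-15). Surface fish at 59.2 ± 4.71 CPM and Pachón at 56.9 ± 4.66 CPM lay between them, with log2 fold changes against surface fish of 3.20 in Molino (standard error 0.11) and −2.61 in Tinaja (standard error 0.12). Molino and Tinaja thus departed from the surface level in opposite directions, and the Pachón levels overlapped those of surface fish.

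For astmex-miR-251, the levels were 111, 122, and 111 CPM in Molino and 1.73, 1.67, and 1.40 CPM in Tinaja (log2 fold change 6.14, standard error 0.14, edgeR adjusted p = 1.04e-15). Surface fish had 33.3 ± 2.23 CPM, which made the departure of Tinaja, at a log2 fold change of −4.35 (standard error 0.14), larger than that of Molino at 1.79 (standard error 0.10). Pachón, at 1.99 ± 0.407 CPM, was close to Tinaja. The departure of Tinaja was also the larger one for astmex-miR-224, with 78.2, 89.8, and 86.3 CPM in Molino. Tinaja had 0.329, 0.145, and 0.116 CPM of it, from 4, 2, and 1 counts (log2 fold change, Molino over Tinaja, 8.62, edgeR adjusted p = 2.62e-14). With so few counts, no standard error is given for that difference. Here surface fish stood at 36.6 ± 1.98 CPM and Pachón at 9.39 ± 2.29 CPM. The log2 fold change of Molino over surface fish was 1.21 (standard error 0.13), and this call was lost when 2-fold itself was taken as the null hypothesis (glmTreat adjusted p = 0.0739).

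The other 2 miRNAs of this kind were less abundant. For astmex-miR-269, Molino libraries had 58.1, 57.4, and 60 CPM and Tinaja libraries 1.81, 0.727, and 0.931 CPM (log2 fold change 5.64, standard error 0.21, edgeR adjusted p = 1.48e-12), with 6.19 ± 0.16 CPM in surface fish. For astmex-miR-138, Molino libraries had 26.0, 31.6, and 28.4 CPM and Tinaja libraries 1, 2, and 1 counts, with 2.49 ± 0.708 CPM in surface fish. The summed counts of astmex-miR-138 per library size were 247 times as high in Molino (95% exact counting interval 96.1 to 909.9, edgeR adjusted p = 7.16e-13).

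Molino but not Tinaja departed from surface fish in 4 of the leading miRNAs higher in Molino. The smallest adjusted p of the whole comparison belonged to one of them, astmex-miR-203, with 315, 348, and 339 CPM in Molino and 6.00, 6.33, and 5.47 CPM in Tinaja (log2 fold change 5.80, standard error 0.11, edgeR adjusted p = 4.29e-16). Surface fish at 5.64 ± 0.717 CPM and Pachón at 5.32 ± 0.608 CPM stood where Tinaja did, and the log2 fold change of Tinaja over surface fish was 0.09 (standard error 0.13). The 9 libraries of the other morphs thus lay together, and only the Molino libraries stood apart from them in this miRNA.

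The other 3 were hardly counted outside Molino. Each Molino library had 739 to 827 counts of astmex-miR-243, against 0, 1, and 2 counts in the Tinaja libraries, at most 1 count in a surface fish library, and at most 4 in a Pachón library. Its summed counts per library size were 1156 times as high in Molino as in Tinaja (95% exact counting interval 395 to 5610, edgeR adjusted p = 2.24e-14). For astmex-miR-314, Molino libraries had 180, 231, and 192 counts and Tinaja and surface fish libraries none, which makes it at least 95.2-fold higher in Molino than in Tinaja, with the limit set by 3 counts in each library (edgeR adjusted p = 7.15e-10). A single count was found in Pachón. For astmex-miR-396, Molino libraries had 119, 107, and 89 counts, no Tinaja or Pachón library had any, and 1 surface fish library had 2, which makes it at least 49.6-fold higher in Molino than in Tinaja (edgeR adjusted p = 2.17e-08).

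In 2 of the leading miRNAs higher in Molino, Tinaja was differentially expressed against surface fish and Molino was not. Molino libraries had 295, 289, and 279 CPM of astmex-miR-204 and Tinaja libraries 58.7, 50.8, and 68.9 CPM (log2 fold change 2.28, standard error 0.10, edgeR adjusted p = 6.14e-12). Surface fish had 181 ± 10.7 CPM, and against it the log2 fold change was −1.61 in Tinaja (standard error 0.10) and 0.66 in Molino (standard error 0.09), the latter past the adjusted p but not 2-fold. A near-equal pattern was seen in astmex-miR-207 and astmex-miR-208, named after their values were seen, with 275 ± 6.88 and 271 ± 6.99 CPM in Molino and 54.9 ± 8 and 55.1 ± 7.87 CPM in Tinaja. The counts of these 2 lay within 10% of each other in each of the 12 libraries. Those of astmex-miR-204 were close to them, at 2335 against 2228 and 2209 in Molino replicate 1. In Tinaja replicate 1, they were 714 against 653 and 652. Reads shared between similar miRNAs cannot be told apart from separate reads. Thus astmex-miR-204, astmex-miR-207, and astmex-miR-208 may not be independent of each other. For astmex-miR-273, Molino libraries had 365, 370, and 287 counts and surface fish 264, 168, and 197, whereas no Tinaja and no Pachón library had any. It was at least 161-fold higher in Molino than in Tinaja (edgeR adjusted p = 5.45e-11).

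The remaining 4 of the 16 differed from these patterns. In astmex-miR-278 both morphs were below the surface level of 38.9 ± 4.77 CPM, Molino with 17.7, 15.6, and 20.2 CPM and Tinaja with no count, at least 65.7-fold lower than Molino (edgeR adjusted p = 1.88e-11). The lower level of Molino, a log2 fold change of −1.13 from surface fish, was no longer called by glmTreat (adjusted p = 0.202). In astmex-miR-198 both were above the surface level of 30.9 ± 3.95 CPM, Molino with 256, 263, and 234 CPM and Tinaja with 92.9, 97.7, and 113 CPM (log2 fold change 1.31, standard error 0.09, edgeR adjusted p = 4.65e-09). These miRNAs departed from surface fish the same way in both cave morphs and still differed between them. Neither morph was differentially expressed against surface fish in astmex-miR-70 and astmex-miR-202, whose surface levels of 259.9 ± 11.8 and 187 ± 18.9 CPM lay between both morphs. Against surface fish, both morphs passed the adjusted p in both miRNAs, short of 2-fold. The log2 fold changes from surface fish were 0.72 in Molino and −0.35 in Tinaja for astmex-miR-70, and 0.80 and −0.50 for astmex-miR-202. Molino and Tinaja held 429 ± 27.8 and 205 ± 16.9 CPM of astmex-miR-70 (log2 fold change 1.07, standard error 0.08, edgeR adjusted p = 5.93e-09) and 327 ± 15.4 and 132 ± 8.45 CPM of astmex-miR-202 (log2 fold change 1.31, standard error 0.08, edgeR adjusted p = 1.18e-09). The call of astmex-miR-70 was lost under 7 alternatives, among them without Tinaja replicate 1 (log2 fold change 0.98), and its log2 fold change ranged from 0.96 to 1.13 over all alternatives.

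**Figure D3:**
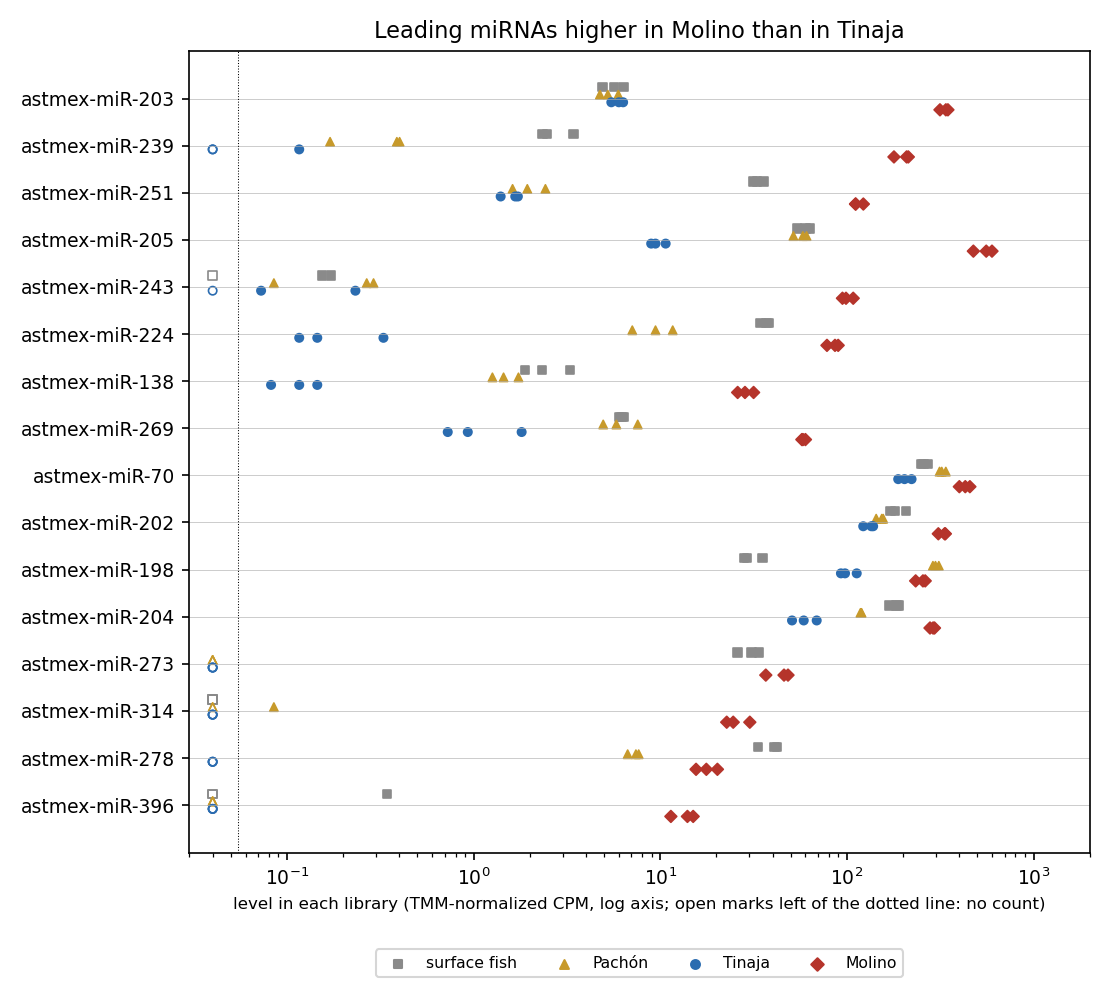
Levels of the 16 leading miRNAs higher in Molino in each of the 12 libraries (TMM-normalized CPM, log axis), with open marks at the left for libraries with no count. Molino levels lie to the right of Tinaja levels in every row, and the surface fish levels lie between them or beside Tinaja, except above both for astmex-miR-278 and below both for astmex-miR-198.

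Among the 12 leading miRNAs higher in Tinaja, 2 departed from surface fish in both morphs and in opposite directions. The larger difference was that of astmex-miR-215, with 113, 104, and 102 CPM in Tinaja and no count in any Molino library. It was at least 277-fold higher in Tinaja than in Molino (edgeR adjusted p = 3.7e-15). Surface fish had 7.78 ± 0.381 CPM and Pachón 168 ± 7.78 CPM, so that Tinaja and Pachón stood above the surface level and Molino below it, by at least 20.2-fold. For astmex-miR-279, Tinaja libraries had 14.7, 15.3, and 19.7 CPM and Molino libraries 1.01, 1.83, and 1.02 CPM (log2 fold change −3.67, standard error 0.22, edgeR adjusted p = 4.97e-10), with 3.32 ± 0.465 CPM in surface fish. The departure of Molino in astmex-miR-279, a log2 fold change of −1.34 from surface fish, was no longer called with 2-fold as the null hypothesis (glmTreat adjusted p = 0.154).

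Tinaja but not Molino departed from surface fish in 4 of the 12. For astmex-miR-259, Tinaja libraries had 721, 842, and 526 counts, Molino and surface fish libraries none, and Pachón libraries at most 2, which makes it at least 157-fold higher in Tinaja than in Molino (edgeR adjusted p = 3.94e-11). It was the converse of astmex-miR-314 and astmex-miR-243, with counts in Tinaja and hardly any in the other 3 morphs. In astmex-miR-408, with 106, 139, and 81 counts in Tinaja and none in Molino (at least 24.5-fold, edgeR adjusted p = 2.22e-08), Pachón libraries had 4 to 12 counts and surface fish at most 1. In astmex-miR-330, with 95, 112, and 65 counts in Tinaja and none in Molino (at least 20.4-fold, edgeR adjusted p = 5.61e-09), Pachón libraries reached 63 to 109 counts and surface fish at most 1.

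The fourth was astmex-miR-228, which was counted in all morphs. Its levels were 48.0, 47.6, and 51.7 CPM in Tinaja and 14, 13.1, and 13.5 CPM in Molino (log2 fold change −1.86, standard error 0.09, edgeR adjusted p = 4.88e-11). Surface fish at 16.2 ± 1.19 CPM were near Molino, and Pachón at 79.8 ± 4.15 CPM was above Tinaja.

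Molino but not Tinaja departed from surface fish in another 4, by lower levels. For astmex-miR-261, Tinaja libraries had 165, 205, and 111 counts and Molino libraries 0, 1, and 0, so that the summed counts per library size were 326 times as high in Tinaja (95% exact counting interval 58.2 to 12900, edgeR adjusted p = 4.57e-12). Tinaja, at 13.8 ± 1.01 CPM, was itself under the surface level of 23.5 ± 1.5 CPM by less than 2-fold. Levels of astmex-miR-244 were 37.8, 34.4, and 32.2 CPM in Tinaja and 4.41, 6.27, and 5.76 CPM in Molino (log2 fold change −2.67, standard error 0.13, edgeR adjusted p = 4.88e-11), with 44.0 ± 3.56 CPM in surface fish and 54.9 ± 4.17 CPM in Pachón. Here the Molino libraries stood below those of all other morphs.

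The more abundant astmex-miR-60 had 813, 829, and 718 CPM in Tinaja and 201, 205, and 182 CPM in Molino (log2 fold change −2.01, standard error 0.09, edgeR adjusted p = 8.3e-12). Surface fish stood between them at 491 ± 9.83 CPM, from which Molino departed by a log2 fold change of −1.33 (standard error 0.09) and Tinaja by 0.68 (standard error 0.08), under 2-fold. For astmex-miR-112, Tinaja libraries had 70.1, 82.1, and 92.0 CPM and Molino libraries 27.0, 21.7, and 24.6 CPM (log2 fold change −1.73, standard error 0.14, edgeR adjusted p = 1.92e-08), with 59.2 ± 12.0 CPM in surface fish. In both miRNAs the lower level of Molino was the larger departure.

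The last 2 of the 12, astmex-miR-49 and astmex-miR-81, were differentially expressed against surface fish in neither morph. Both morphs passed the adjusted p against surface fish in both miRNAs, short of 2-fold. The log2 fold changes from surface fish were 0.85 in Tinaja and −0.48 in Molino for astmex-miR-49, and 0.27 and −0.95 for astmex-miR-81. Tinaja and Molino held 986 ± 87.6 and 392 ± 30.9 CPM of astmex-miR-49 (log2 fold change −1.33, standard error 0.08, edgeR adjusted p = 6.06e-10), on either side of 547 ± 28.9 CPM in surface fish. They held 225 ± 14.5 and 97.1 ± 4.34 CPM of astmex-miR-81 (log2 fold change −1.22, standard error 0.08, edgeR adjusted p = 3.01e-09), beside 187 ± 1.85 CPM in surface fish. For astmex-miR-81 this depended on the scaling, since the log2 fold change of Molino from surface fish was −0.95, and −1.02 and thus differentially expressed with RLE factors or DESeq2. Of the 28 leading miRNAs, 27 kept the direct call under every alternative that tested them, the exception being astmex-miR-70.

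**Figure D4:**
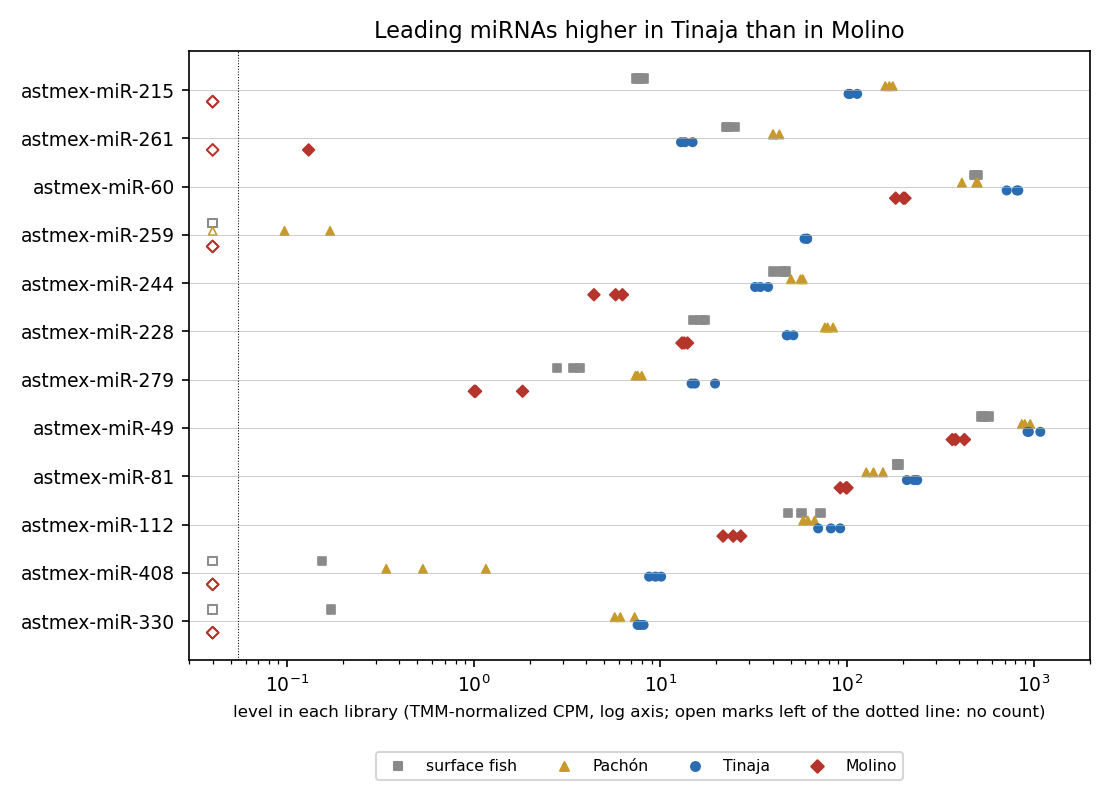
Levels of the 12 leading miRNAs higher in Tinaja in each of the 12 libraries (TMM-normalized CPM, log axis), with open marks at the left for libraries with no count. Tinaja levels lie to the right of Molino levels in every row, and surface fish lie near Molino or between both, or above Tinaja for astmex-miR-261 and astmex-miR-244.

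Some miRNAs were counted in every library of one morph and in none of the other, for which only a lower limit of the fold can be given. At least 10 counts in every Molino library and none in Tinaja were found for 13 miRNAs. At least 10 counts in every Tinaja library and none in Molino were found for 17. All 30 were differentially expressed, compared with 292 of all 683 (42.8%), which this way of choosing them nearly ensures. The 13 had mean Molino levels of 1.75 to 43.7 CPM and were at least 6.45-fold to at least 161-fold higher in Molino. The 17 had mean Tinaja levels of 1.41 to 106 CPM and were at least 3.66-fold to at least 277-fold higher in Tinaja. Since Tinaja libraries were mostly the deeper ones, an absent count is a lower limit in Tinaja than in Molino.

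Surface fish and Pachón divided these 30 further. Of the 13 with no count in Tinaja, 6 had at least 10 counts in every surface fish library, 5 had fewer, and 2 had none, and Pachón had at least 10 counts in every library for 2, fewer for 4, and none for 7. Those with at least 10 counts in every Molino and surface fish library and none in Tinaja or Pachón were astmex-miR-273, astmex-miR-412, astmex-miR-497, and astmex-miR-561, chosen after their values were seen. Of the 17 with no count in Molino, 6 had at least 10 counts in every surface fish library, 6 had fewer, and 5 had none, and Pachón had at least 10 counts in every library for 10, fewer for 5, and none for 2. In 5 of these 17, astmex-miR-215, astmex-miR-353, astmex-miR-301, astmex-miR-311, and astmex-miR-406, all 3 other morphs had at least 10 counts in every library. The converse, at least 10 counts in every library of the other 3 morphs and none in Tinaja, was found for astmex-miR-278 alone among the 13. Among the 30, counts in 1 morph and no count in any other were found for astmex-miR-178 in Molino and for astmex-miR-579 and astmex-miR-619 in Tinaja. Each had mean levels of at most 2.19 CPM in the morph with counts.

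**Figure D5:**
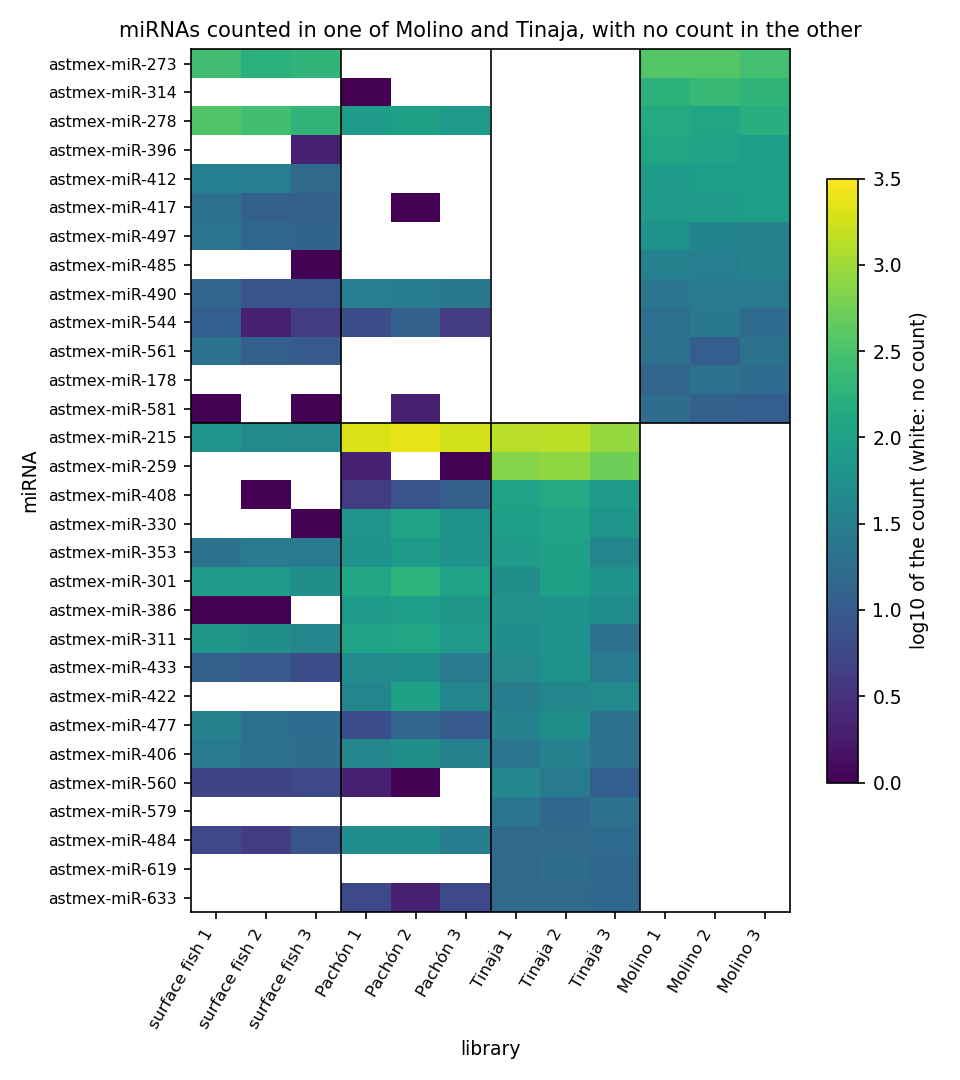
Counts (log10 colour scale, white for no count) of the 30 miRNAs with at least 10 counts in every library of one of Molino and Tinaja and none in the other, in all 12 libraries. The upper 13 have no count in Tinaja and the lower 17 none in Molino, and the surface fish and Pachón columns are filled for some and blank for others.

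At the 2-fold limit the division between differentially expressed and other miRNAs was narrow. Just inside it were astmex-miR-143, whose log2 fold change was 1.02 (standard error 0.14), and astmex-miR-456, with −1.04 (standard error 0.34). Just outside it were astmex-miR-350, with 0.99 (standard error 0.37), and astmex-miR-40, with −0.98 (standard error 0.11). All of these had an edgeR adjusted p under 0.05, the Molino and Tinaja levels overlapped in astmex-miR-350 alone, and all changed sides of the limit under some alternatives.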

How the data were processed

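Small RNA of 24-hpf embryos was sequenced by the authors from surface fish, Pachón, Tinaja, and Molino, 3 libraries each. The authors trimmed reads with Cutadapt 2.5, dropped those under 18 bp or from other noncoding RNA classes, predicted miRNAs with miRDeep2 from all reads combined on the *A. mexicanus* 2.0 genome, and counted each library on the precursors, where similar miRNAs may share reads. They deposited raw counts per mature miRNA and library, without normalization or pooling. Groups and replicate numbers came from sample titles, with 0 value columns unused.

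The counts of all 12 libraries were fitted together in R 4.3.3 with edgeR 4.0.16 (TMM, estimateDisp, glmQLFit, glmQLFTest), with 1 mean per morph and without filtering low counts. The p-values were adjusted over all 683 miRNAs for each comparison. Thresholds were those of the study. The standard error is the log2 fold change divided by the square root of F, an approximation. For a large change with few counts in a morph, it can fall below the counting error. It was left out for astmex-miR-224 between Molino and Tinaja. For astmex-miR-251, astmex-miR-269, and astmex-miR-279 it may be too small. No exact permutation test was made, because its smallest two-sided p for 3 against 3 libraries is 0.1. Where a morph had no count, the fold is a lower limit set by 3 counts in each library. Where it had 1 to 3 counts per library at most, the ratio of summed counts is given with an exact (Clopper-Pearson) 95% counting interval.

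On simulated counts with 200 of 683 miRNAs changed 4-fold between Molino and Tinaja, 86% were recovered, with 1 false call, and 95.7% of the 140 with a mean of at least 10 counts. These counts were drawn from the fitted model and its spread, at levels otherwise shared by all morphs. They do not show recovery or false calls near 2-fold. Differences between counted and hardly counted morphs, as in the data, were not simulated. Named miRNAs were, in each direction, the 8 well-counted ones (mean of 10 counts or more) with the smallest adjusted p, the 5 most abundant, and the 4 most abundant with at least 10 counts in every library of one morph and none in the other, and further the 3 most abundant miRNAs and those nearest to the 2-fold limit. The members and rules were chosen with earlier results of these data known. Alternatives were RLE factors, unadjusted library sizes, DESeq2 1.42.0 (Wald test), the likelihood ratio test, a fit of the 6 compared libraries, filterByExpr, a mean of at least 10 counts, no fold-change rule, glmTreat, a replicate block, thinning to the shallowest library, and each library left out. Counting miRNAs with near-identical counts once was added after seeing the data. Replicate libraries differed by more than counting noise (chi-square per degree of freedom of 13.1 to 641), so none was taken for a copy.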

Additional observations from a re-analysis of the deposited data

Results flagged for a closer look

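In 8 leading miRNAs, Molino and Tinaja lay on opposite sides of surface fish, each differentially expressed against them. The leading miRNAs were chosen by the direct comparison of Molino and Tinaja, so that comparison is no separate test of these 8. That choice also favours opposite departures, and their number among all differentially expressed miRNAs is not given here. The 8 thus do not show how common such departures are. With 2-fold as the null hypothesis (glmTreat), Molino was no longer called against surface fish for 2 of the 8, astmex-miR-224 (adjusted p = 0.0739) and astmex-miR-279 (adjusted p = 0.154). Molino was above and Tinaja below for 6 of them. Their levels were higher in Molino than in Tinaja by a ratio of summed counts of 6912 for astmex-miR-239 and 247 for astmex-miR-138. The fitted fold was 70.5 for astmex-miR-251, 56.1 for astmex-miR-205, and 49.9 for astmex-miR-269. For astmex-miR-224 it was 393, a value that rests on only 4, 2, and 1 counts in the Tinaja libraries. Tinaja was above and Molino below for 2, with a level in Tinaja at least 277-fold higher for astmex-miR-215 and 12.7-fold higher for astmex-miR-279. In all 8, the 3 Molino levels did not overlap the 3 Tinaja levels. This was so for 447 of all 683 miRNAs (65.4%) and for 284 of the 292 differentially expressed ones. With 3 libraries per morph, no test for an outlying library was made.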

How the results depend on the processing

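Over 24 alternatives, the number of differentially expressed miRNAs lay between 211 (glmTreat) and 434 (no fold-change rule), and between 276 and 293 with each library left out in turn. Among the latter fits, the number higher in Tinaja was lowest, at 87, without Molino replicate 1. The number higher in Molino was lowest, at 177, without Tinaja replicate 2. Molino had the larger number of higher miRNAs under each of the 24 alternatives, and no differentially expressed named miRNA turned its direction. Among differences that were not called, that of astmex-miR-2, Molino over Tinaja, ranged from −0.30 to 0.09 on the log2 scale. Without the fold-change rule, 194 miRNAs were higher in Tinaja and 240 in Molino, so that the share higher in Molino was 55.3% in place of 65.8%. Of the 292, 238 were called in all 12 fits that left out a library. With the replicate block the numbers were 287, 187, and 100. Deviations of same-numbered Molino and Tinaja libraries correlated with r of −0.186, 0.126, and −0.18, and those of differently numbered ones with r of −0.198 to 0.302. Deviations within so few libraries depend on each other, so these values cannot decide whether the numbers pair samples. The libraries were treated as unpaired. The call of astmex-miR-70 was lost under 7 alternatives (RLE factors, DESeq2, the fit of 6 libraries, glmTreat, thinning, near-identical counts collapsed, and without Tinaja replicate 1), and the cause was not tested. Low counts limit the size of a change where a morph has at most 3 counts per library, and the simulated recovery was 86% over all changed miRNAs against 95.7% of the well-counted ones (mean of 10 counts or more).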

Other observations

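The most abundant miRNAs after astmex-miR-1 kept a steady ratio within Tinaja and within Molino, which was noticed after the values were seen. Counts of astmex-miR-2 were 1.65 to 1.73 times those of astmex-miR-3 in the Tinaja libraries and 1.79 to 1.89 times in the Molino libraries, while the share of astmex-miR-2 in a library ranged from 10.9% to 17.3% in Tinaja and from 11.6% to 15.5% in Molino. The ratio was 1.55 to 1.66 in surface fish and 1.72 to 1.78 in Pachón. Within Tinaja and within Molino, the levels of each miRNA thus varied by more than their ratio did, and the ratio was higher in Molino.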
